A study of Mus musculus with 17 samples.

Results

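The genes described here encode enzymes of the urea cycle and of amino acid breakdown: Cps1, Otc, Ass1, Asl, Arg1, Tat, Hpd, Bhmt, Sds and Got1. They were chosen by name, as every probe set annotated to 1 of these 10 symbols alone, in both array tables. 7 of the 10 genes had such a probe set, 1 each, of 6137 genes named in this way and 13069 probe sets in all, and Cps1, Tat and Sds had none. Otc, Asl, Arg1, Hpd, Bhmt and Got1 were on chip A and Ass1 was on chip B. A further probe set, annotated to both Ass1 and Gm5424, was left out. The Ass1 probe set used is of a type that its maker marks as shared within a sequence family, so its values may include near-identical copies of the gene.

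Amino acids that are not used for protein lose their nitrogen by transamination, and in liver that nitrogen is made into urea by a cycle that begins in mitochondria and ends in the cytosol. The full cycle is a property of hepatocytes, whereas the aminotransferases that pass amino groups between glutamate and other acids work in nearly every tissue, the brain included. In liver, many of these genes are known to respond to dietary protein, fasting, glucagon and glucocorticoids.

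RNA came from liver and hippocampus of male Rj:NMRI mice, an outbred stock, on purified diets that contained 1.1% of a fungal oil rich in arachidonate, 1.9% of a fish oil, both oils, or neither (control). The test oils took the place of part of the medium chain triacylglycerol oil, so all groups shared the same base diet. Of 10 mice per diet, housed 10 per cage, 5 were selected, and they were killed in the morning of day 57 or 58 of feeding. Food had not been removed overnight, so the mice may have fasted for 0 to 6 h, against 12 to 16 h for a complete fast. The liver gave 1 RNA for each oil diet and 2 for control, each on both chips. The hippocampus gave 1 RNA per diet, of which the RNA of the mice fed both oils was analysed on chip B alone. The labels do not say whether RNA was pooled over mice or that the pair of liver control RNAs had separate sources, so p-values measure the spread between the RNAs in each fit, which may be technical. For a single diet that is the spread of the 2 liver controls. The fits of all oil RNAs together and of the 2 tissues also take in the spread among the oil RNAs or the hippocampus RNAs. Each fit was made with limma, which draws the spread of a gene towards that of probe sets of like intensity on its chip. Cage and day of death cannot be told apart from diet. All values are whole-number intensities as deposited, on arrays already set to a common mean, and in bulk tissue fewer cells of a type cannot be told apart from less RNA per cell.

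The labelled tissues carried their defining transcripts. The 7 measured hepatocyte markers summed to between 57007 and 74388 on the liver arrays, against 520 to 910 on the hippocampus arrays that covered all of them. The 6 measured neuron markers summed to between 62 and 107 in liver and to between 4808 and 4903 in hippocampus. Across probe sets, Pearson's r between the 2 liver controls was 0.954 on chip A and 0.919 on chip B, a description over genes that are not independent, and their log2 difference had an SD of 0.50 and 0.80. On chip A, 19.9% to 21.1% of the values per liver array were negative, and the step that left them so is not stated. Gapdh probe sets at the 3-prime end read 1.89 to 3.26 times those at the 5-prime end in liver and 0.840 to 0.947 times in hippocampus, a ratio that is higher in more degraded RNA.

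2 promoters are shown here as examples of genes that differed in where they were read. Got1 was read in liver and hippocampus alike, whereas Otc, like most of the others, was read in liver alone. The sequences are from RefSeq on build GRCm38.p6, which held 5 of the 7 genes, and cover the 250 bases before the annotated start, with searched motifs in capitals. The Got1 promoter is at chr19:43524606-43524855 on the minus strand and the Otc promoter is at chrX:10252055-10252304 on the plus strand.

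Got1: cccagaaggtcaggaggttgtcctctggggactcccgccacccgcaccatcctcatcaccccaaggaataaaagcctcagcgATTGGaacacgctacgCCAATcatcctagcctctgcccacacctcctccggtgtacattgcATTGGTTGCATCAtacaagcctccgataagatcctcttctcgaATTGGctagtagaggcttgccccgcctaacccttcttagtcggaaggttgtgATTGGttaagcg

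Otc: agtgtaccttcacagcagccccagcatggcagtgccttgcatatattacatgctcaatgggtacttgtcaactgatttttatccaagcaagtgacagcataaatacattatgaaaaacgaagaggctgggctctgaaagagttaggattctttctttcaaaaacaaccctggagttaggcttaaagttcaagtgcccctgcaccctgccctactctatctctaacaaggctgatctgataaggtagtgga

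Both strands were searched for the TATA box TATAAA, the GC box GGGCGG, the CCAAT box CCAAT, the HNF1 half-site GTTAAT, the CRE half-site TGACG and the glucocorticoid half-site TGTTCT. The Got1 promoter held 5 CCAAT boxes, 4 of them on the other strand as ATTGG, and no other motif of these 6. A CCAAT box was present in 33.8% of all 32851 promoters of the same length, and 5 or more were present in 0.213% of them. The run TTGCATCA, known as a C/EBP-ATF element at which stress and amino acid responsive factors bind, lay directly beside the third CCAAT box of the printed Got1 sequence. It was present in 0.791% of all promoters, and it was searched for after the sequence had been seen. The Otc promoter held none of the 7 motifs, and it had 1 CpG, an observed over expected ratio of 0.0843, against 11 CpGs and a ratio of 0.617 for Got1 and a median ratio of 0.3735 over all promoters. Of the other promoters that could be read, the one of Bhmt held 1 CCAAT box and those of Hpd and Ass1 held 1 GC box each. Their CpG ratios were 0.35 for Bhmt, 0.289 for Hpd and 0.644 for Ass1. Ass1, which was higher in liver, thus had a higher ratio than Got1. Among these genes, however, Ass1 and Got1 were also the ones with hippocampus values above the floor described below. Those of Ass1 lay within the noise of the arrays, and all hippocampus values of Otc, Hpd and Bhmt were negative. Whether the ratio follows where the genes were read was not tested. These matches are a description of the letters in this window, and they identify no site in use.

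Liver was first set against hippocampus. 6 of the 7 genes were higher in liver by a wide margin, and Got1 was read at about the same level in both tissues. A floor of 15, which is 0.1 times the common array mean of 150, stood in for lower values before log2 was taken. For this comparison every array was first rescaled to a trimmed mean of exactly 150, which raised the liver values slightly, and each bound below is the geometric mean of the rescaled liver values over the floor. The comparison used limma over tissue and diet, and a gene was called where the adjusted p was under 0.05 and the tissues differed by 2-fold or more. By that rule 19.4% of all probe sets tested were higher in liver. These 6 genes entered the test through their liver values, so they had to differ, and the counts are a description.

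Otc, which joins carbamoyl phosphate to ornithine in mitochondria, averaged 2902 ± 282 in liver (SD, n = 5), against values of -9, -40 and -43 in hippocampus. Its rescaled liver values had a geometric mean of 2929, so that with hippocampus held at the floor it was at least 195-fold higher in liver. Asl, which splits argininosuccinate into arginine and fumarate, averaged 1288 ± 130 in liver and read -49, -146 and -7 in hippocampus, a difference of at least 86.7-fold. Arg1, the arginase that releases urea, averaged 2143 ± 263 in liver and read -1, 4 and 12 in hippocampus, at least 144-fold. Both groups were far apart for all 3 genes, and no hippocampus array read them above the floor.

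The enzymes outside the cycle that are typical of liver had the same distribution. Hpd, the dioxygenase that carries out the second step of tyrosine breakdown, averaged 5823 ± 810 in liver and read -45, -98 and -69 in hippocampus, at least 391-fold. Bhmt, which returns homocysteine to methionine with betaine as the methyl donor, averaged 7242 ± 221 in liver and read -13, -19 and -34 in hippocampus, at least 489-fold. Since every hippocampus value of these 5 genes was set to the floor, hippocampus had no spread in the fit and the fitted p-values are too small to use.

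Ass1, which condenses citrulline with aspartate in the cytosol, was the 1 urea cycle gene with hippocampus values above the floor. On chip B it averaged 9054 ± 1034 in liver (SD, n = 5) and 104 ± 68.9 in hippocampus (SD, n = 4), where the arrays of the fungal, fish, both-oil and control diets read 170, 8, 129 and 109. The fit, which holds diet constant and set the fish oil value of 8 to the floor, gave a log2 difference of 6.85 (SE 0.55). No p-value is given, because Ass1 entered the test through its liver values. The hippocampus values lay within the noise of those arrays, so the size of this difference is uncertain: the 95th percentile of the size of negative values there was between 174.1 and 257.

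Got1, the cytosolic aspartate aminotransferase, which moves amino groups between aspartate and glutamate and serves the malate-aspartate shuttle, averaged 774 ± 224 in liver (SD, n = 5) and 960 ± 138 in hippocampus (SD, n = 3). The ranges overlapped, from 467 to 1051 in liver and from 814 to 1088 in hippocampus. The fit gave a log2 difference of -0.19 (SE 0.18, limma adjusted p = 0.360), which did not pass, and the estimate was between -0.45 and -0.19 over the alternatives tried.

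**Figure D1:**
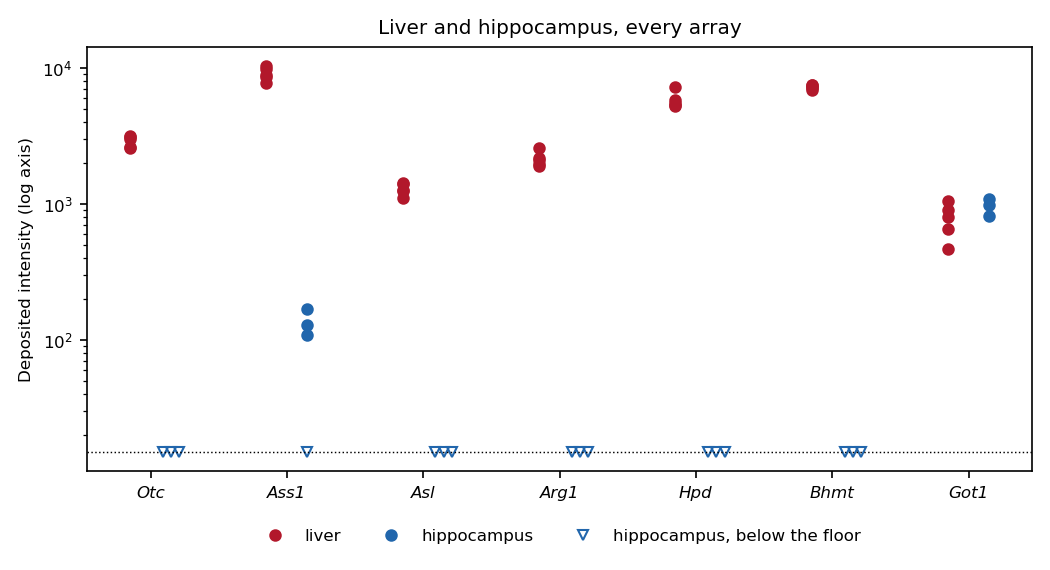
Deposited intensity (vertical log axis) of the 7 genes on every liver array (red) and hippocampus array (blue), with open triangles on the dotted floor of 15 for hippocampus values below it. Got1 is the 1 gene whose tissues overlap, with 467 to 1051 in liver and 814 to 1088 in hippocampus, and Ass1 is the 1 other gene with hippocampus values above the floor.

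The oil diets were then compared with control in liver. In each such contrast 0 of 7 genes passed the test, limma over 4 diet groups with p-values adjusted over all probe sets of both chips. The background was as empty: 0% of 6537 probe sets were called for fungal oil, 0% for fish oil and 0% for both oils. At an unadjusted p under 0.05 the contrasts held 599, 724 and 647 probe sets, and 1, 4 and 2 of the 7 genes. Each oil diet has 1 RNA, so the error rests on the 2 controls, with 1 residual degree of freedom, and the fit gives every oil RNA the spread of that pair. The 3 oil RNAs were also set together against the 2 controls, where 0.0612% of probe sets were called, all lower with oil, and again 0 of the 7 genes.

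The 4 urea cycle genes did not share 1 pattern over the diets. Otc read 3129 with fungal oil, 3171 with fish oil and 3010 with both oils, against 2594 and 2606 in the controls. All 3 oil RNAs lay above both controls, which were close together. The log2 differences were 0.27, 0.29 and 0.21 (SE 0.07 each), and the 3 oil RNAs together averaged 3103 ± 83.5 (SD, n = 3), against 2600 ± 8.5 in control (SD, n = 2), a log2 difference of 0.25 (SE 0.08, limma adjusted p = 0.425). An additive fit of the oils gave 0.12 for fungal oil and 0.14 for fish oil, and quantile normalization gave 0.18 for fish oil.

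Arg1 read 2119 with fungal oil, 2567 with fish oil and 2174 with both oils, against 1958 and 1897 in the controls. Here too the oil RNAs lay above both controls, and the fish oil RNA was the highest. Its log2 differences were 0.14, 0.41 and 0.17 (SE 0.08 each), and with fish oil the limma adjusted p was 0.383. The additive fit gave -0.025 for fungal oil and 0.25 for fish oil. Neither Otc nor Arg1 passed.

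For Ass1 and Asl the oil values had no common position against the controls. Ass1 read 8912 with fungal oil, 9868 with fish oil and 8517 with both oils, all between its 2 control values of 10271 and 7703. Its controls stood 0.42 apart on the log2 scale, more than any oil difference, which were 0.00, 0.15 and -0.06 (SE 0.24 each). Without control 1 they were 0.21, 0.36 and 0.14, and without control 2 they were -0.20, -0.058 and -0.27, so the choice of control set their sign. Asl read 1420 with fungal oil, 1260 with fish oil and 1103 with both oils, against 1253 and 1406 in the controls. The fungal oil RNA lay just above both controls and the both-oil RNA below them, with log2 differences of 0.10, -0.08 and -0.27 (SE 0.11 each). The fish oil difference was -0.16 without control 1 and 0.0080 without control 2.

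**Figure D2:**
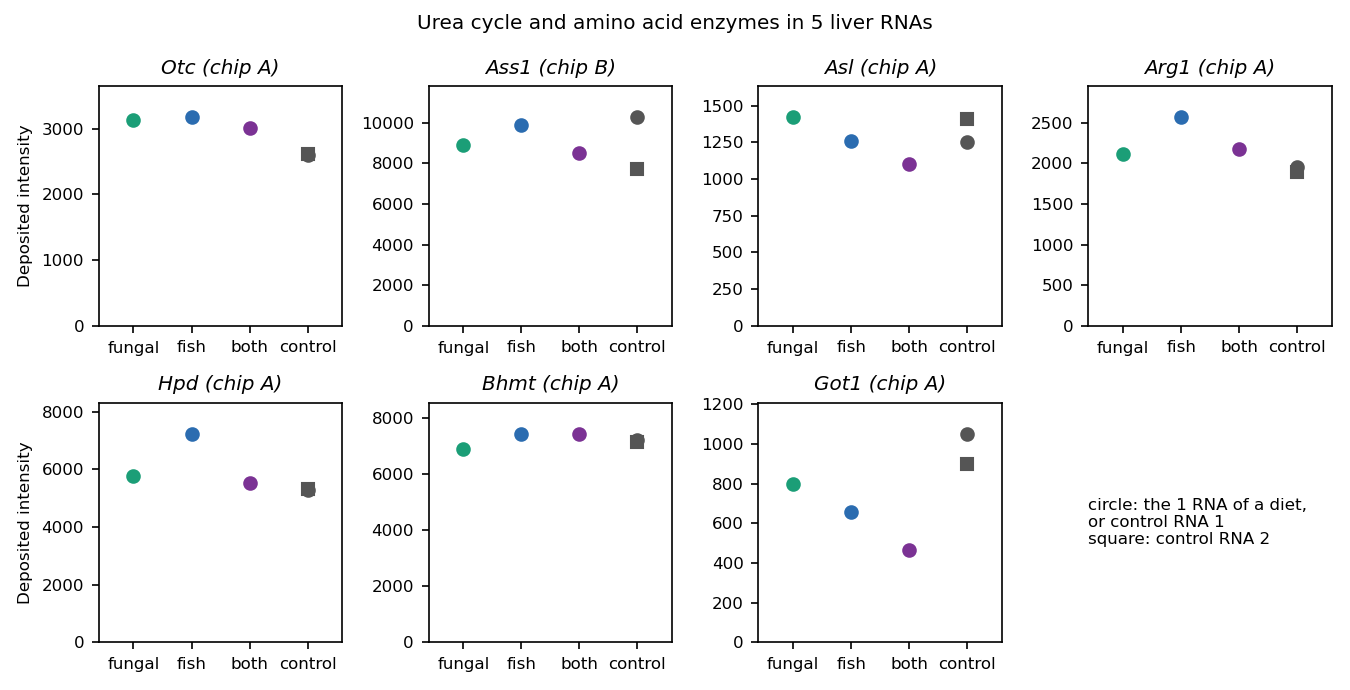
Deposited intensity (vertical axes from 0) of each gene in the 5 liver RNAs, by diet, with circles for the 1 RNA of a diet or control RNA 1 and squares for control RNA 2. All oil values lie above both controls for Otc, Arg1 and Hpd and below both for Got1, which spans 467 to 1051.

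Hpd, in tyrosine breakdown, stood out for fish oil alone. It read 5772 with fungal oil, 7229 with fish oil and 5520 with both oils, against 5272 and 5323 in the controls. The fish oil value was well above the others, and the RNA of mice fed both oils was close to the controls. The log2 differences were 0.12, 0.45 and 0.06 (SE 0.06 each), and with fish oil the limma adjusted p was 0.382. Quantile normalization moved the fish oil difference to 0.19 and an additive fit of the oils moved it to 0.23.

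Values that moved with Hpd and Arg1 were also present outside these genes. Among the brightest 5% of probe sets of chip A, 327 in number, the median log2 difference with fish oil was 0.09, against -0.0049 over all tested probe sets of that chip. The summed hepatocyte markers were 74388 with fish oil, against 62673 with fungal oil, 62133 with both oils and 64474 and 57007 in the controls, and their median log2 difference with fish oil was 0.24. Of the 7 tested markers 5 were above and 2 below the control mean with fish oil. Cyp2e1, a cytochrome P450 of hepatocytes, read 13101 with fish oil and 9172 and 9171 in the controls. The 2 that were lower were Ttr, at 1160 against 1292 and 1323, and the dim Apoa1, at 62 against 107 and 97. The part of these differences in the Hpd and Arg1 values was not tested.

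Bhmt varied least of the 7 genes, with a range of 0.11 on the log2 scale over the 5 liver RNAs. It read 6915 with fungal oil, 7453 with fish oil and 7438 with both oils, against 7228 and 7174 in the controls. The log2 differences were -0.06, 0.05 and 0.05 (SE 0.06 each).

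Got1 varied most, with a range of 1.17 on the log2 scale. It read 798 with fungal oil, 656 with fish oil and 467 with both oils, against 1051 and 900 in the controls. All 3 oil RNAs lay below both controls, and the RNA of mice fed both oils was the lowest, at 0.48 times the control level. The log2 differences were -0.29, -0.57 and -1.06 (SE 0.14 each), with limma adjusted p-values of 0.639, 0.426 and 0.390, so that none passed. The gap between the controls was 0.22, close to the difference of the fungal oil RNA. The 3 oil RNAs averaged 640 ± 166 (SD, n = 3), against 976 ± 107 in control (SD, n = 2), a log2 difference of -0.64 (SE 0.22, limma adjusted p = 0.498). For both oils the estimate stayed between -1.17 and -0.95 over the alternatives tried, with adjusted p-values between 0.0558 and 0.477.

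**Figure D3:**
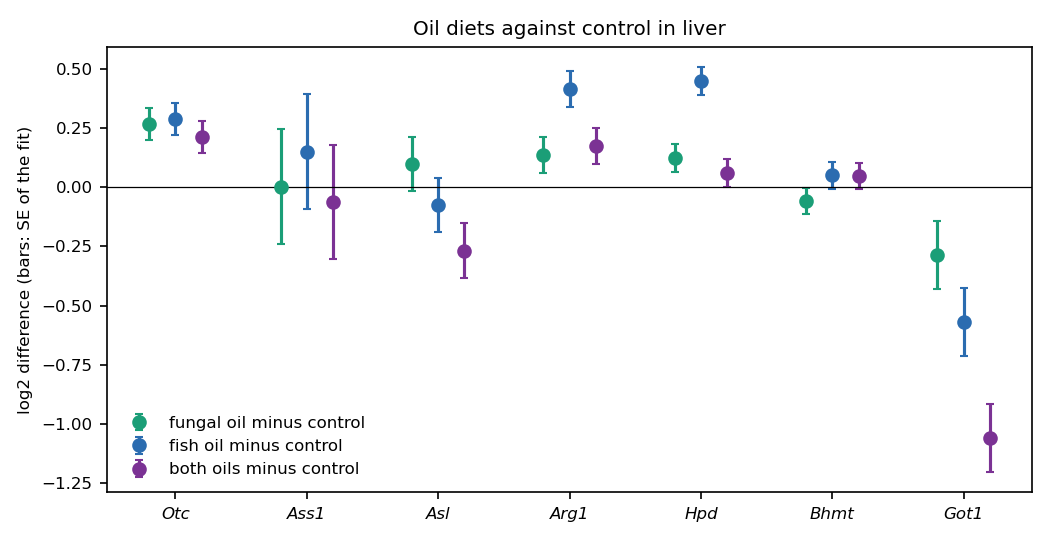
Log2 difference of each oil diet from control in liver (vertical axis) for the 7 genes, with bars for the SE of the fit. The both-oil value of Got1 at -1.06 is the farthest from 0, the fish oil values of Hpd (0.45) and Arg1 (0.41) are the highest, and none passed the test.

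By position alone, 3 of the 7 genes (Otc, Arg1 and Hpd) had all 3 oil RNAs above both controls, against 12.6% of all tested probe sets, and 1 (Got1) had all of them below, against 11.9%. The median log2 difference of the 7 genes was 0.10 with fungal oil, 0.15 with fish oil and 0.05 with both oils, and over all tested probe sets it was -0.01, 0.01 and 0.05. The 7 genes are bright, and among the brightest 5% of probe sets of chip A it was 0.04, 0.09 and 0.01. Under quantile normalization the medians of the 7 genes were 0.05, 0.01 and -0.012. The contrasts share their 2 control RNAs, so the rows of values are not independent of each other.

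The 2 oils were compared directly as well. Fungal oil minus fish oil gave 0 of 7 genes called, with 0% of all probe sets called, 588 of them at an unadjusted p under 0.05. Hpd was lower with fungal oil by a log2 difference of -0.32 (SE 0.07, limma adjusted p = 0.528) and Arg1 by -0.28, whereas Got1 was at 0.28. The interaction of the oils, the both-oil effect less the sum of the single ones, was below 0 for 6 of the 7 genes, with a median of -0.29 against 0.06 over all probe sets. That background was not matched for the brightness of the 7 genes. The interaction was lowest for Hpd at -0.51 (SE 0.09, limma adjusted p = 0.529), then Arg1 at -0.38 and Otc at -0.34, and it was -0.20 for Got1 (SE 0.22). Again 0% of probe sets were called, with 607 at an unadjusted p under 0.05.

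Got1 was then set beside its mitochondrial counterpart and regulators of amino acid genes. Got2, the aspartate aminotransferase of mitochondria, read 7609 with fungal oil, 7709 with fish oil and 7167 with both oils, against 6904 and 6051 in the controls. Its oil values lay above both controls, on the other side from those of Got1, with a log2 difference of 0.21 (SE 0.09, limma adjusted p = 0.608) over the 3 oil RNAs. Of 12 measured regulators 9 were tested, 6 lay above and 3 below the control mean over the oil RNAs, with a median of 0.08, and 0 passed. The 3 brighter ones with the largest differences were Atf5, Atf4 and Cebpb. Atf5, a stress responsive transcription factor enriched in liver, read 505, 563 and 281 with fungal, fish and both oils, against 875 and 864 in the controls. Its log2 difference over the oil RNAs was -1.01 (SE 0.28, limma adjusted p = 0.368). Atf4, which activates genes of amino acid supply under stress, read 910, 1045 and 647, against 1115 and 1129 in the controls, a difference of -0.40 (SE 0.19, limma adjusted p = 0.674). Cebpb, a C/EBP factor of hepatocytes, lay on the other side, at 1071, 1021 and 729 against 793 and 608 in the controls (log2 0.42, SE 0.21, limma adjusted p = 0.670). Its both-oil value lay between the controls. All 3 of Got1, Atf5 and Atf4 had their lowest liver value in the RNA of mice fed both oils, and none passed the test. Asl, at 1103, and G6pc, at 553, were also lowest in that RNA. The share of all probe sets lowest there was not counted, and a link between Got1 and these factors was not tested. Asns, the asparagine synthetase gene that Atf4 is known to activate, was below 0 in all 5 liver RNAs.

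In hippocampus Got1 read 1088 with fungal oil and 979 with fish oil, against 814 in control, which are log2 ratios of 0.42 and 0.27. Each diet has 1 hippocampus RNA, so these have no replicate check. The SD of the same ratios over all kept probe sets was 0.46 and 0.41, so neither stands beyond the general scatter. The choroid plexus markers, a tissue next to the hippocampus, summed to 3716 and 2031 on the same oil arrays and to 970 on the control array. Most of that sum was Ptgds, at 3118 and 1843 with fungal and fish oil against 624. Ttr read 490 and 157 against 304 and Kl read 69 and 31 against 42, so both were lower with fish oil. Folr1 read 39 and -23 against -37. The part of these markers in the Got1 ratios was not tested.

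**Figure D4:**
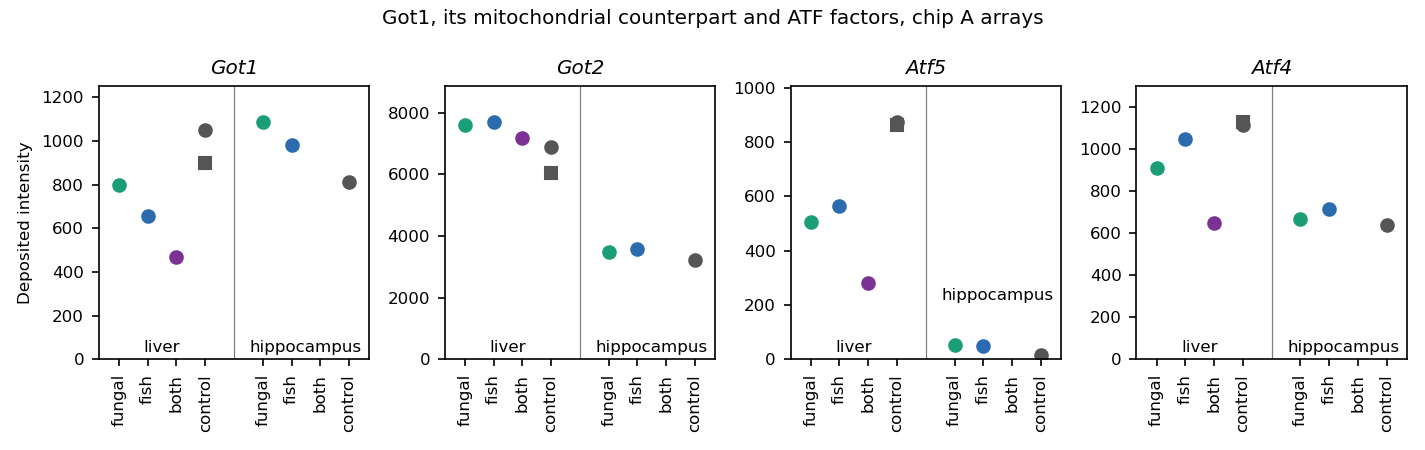
Deposited intensity (vertical axes from 0) of Got1, Got2, Atf5 and Atf4 on the chip A arrays, by diet, in liver (left of each panel) and hippocampus (right), with squares for the second liver control and no both-oil array in hippocampus. In liver the oil values of Got1, Atf5 and Atf4 lie below both controls, with 467, 281 and 647 for both oils, whereas those of Got2 lie above.

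By the smallest root mean square difference of log2 deviations from control over the 5 liver RNAs, the genes most like Got1 among 3514 were Ppt1 (0.113), a lysosomal thioesterase, Hinfp (0.125), a zinc finger transcription factor, and Tubgcp4 (0.135), a part of the gamma-tubulin complex. Ppt1 read 79, 53 and 44 with fungal, fish and both oils, against 94 and 89 in the controls. All 3 were dim, with no value above 148, in a range where negative values of that size occur on the same arrays.

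The other enzymes of amino acid metabolism were taken from lists by pathway. Of 84 such genes 41 were measured and 34 were bright enough to be tested, and 0 of the 34 passed in either direction in any of the liver contrasts. With the 3 oil RNAs together, 23 lay above and 11 below the control mean, with a median of 0.09. All 3 oil RNAs were above both controls for 12 of them (against 12.6% of all probe sets) and below both for 4 (against 11.9%). Of those below, 2 were among the 5 tested genes of serine, glycine and threonine metabolism. The others were 1 of 6 genes that support the urea cycle and 1 of 4 in the tyrosine pathway. By pathway, 3 of the 6 genes of methionine, choline and one-carbon metabolism had all oil RNAs above the controls, as had 2 of 6 genes that support the urea cycle, 2 of 8 of branched chain breakdown, 2 of 5 of serine, glycine and threonine metabolism, 1 of 3 of tryptophan, histidine and lysine breakdown, both tested genes of transamination and glutamine, and 0 of 4 in the tyrosine pathway beside Hpd.

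Mat1a, which makes S-adenosylmethionine in liver, read 3915, 3840 and 3660 with fungal, fish and both oils, against 2747 and 2949 in the controls. Every oil value was above both controls, with a log2 difference of 0.42 (SE 0.08, limma adjusted p = 0.185). Tdo2, the first enzyme of tryptophan breakdown, read 5238, 5076 and 5867 with the oils, against 3917 and 3867 in the controls, a difference of 0.47 (SE 0.11, limma adjusted p = 0.232). A dimmer Tdo2 probe set on chip A read 895, 1053 and 959, against 956 and 737, and its oil values overlapped the controls. Glud1, glutamate dehydrogenase, which frees ammonia for the urea cycle, read 2720, 2916 and 2710, against 2261 and 2169 in the controls (log2 0.33, SE 0.11, limma adjusted p = 0.449).

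Agxt, the alanine-glyoxylate aminotransferase of liver, lay on the other side. It read 1555, 1584 and 1746 with fungal, fish and both oils, against 2400 and 2296 in the controls, a log2 difference of -0.53 (SE 0.09, limma adjusted p = 0.143). A second Agxt probe set read 831, 1019 and 1034, against 1391 and 1421, also with every oil value below both controls. Qdpr, which regenerates the cofactor of phenylalanine hydroxylation, read 970, 1029 and 902, against 1139 and 1249 (log2 -0.30, SE 0.10, limma adjusted p = 0.496). Single diets stood apart for Oat, ornithine aminotransferase, at 2432 with fungal oil against 1574 and 1519 in the controls, and for Sardh, sarcosine dehydrogenase, at 1744 with both oils against 1166 and 1237. Glul, the glutamine synthetase of pericentral hepatocytes, read 56, 89 and 89 with the oils and 10 and 22 in the controls. It was picked out after its values had been seen, and it is too dim to be placed, since on those arrays the 95th percentile of the size of negative values was at least 165.

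**Figure D5:**
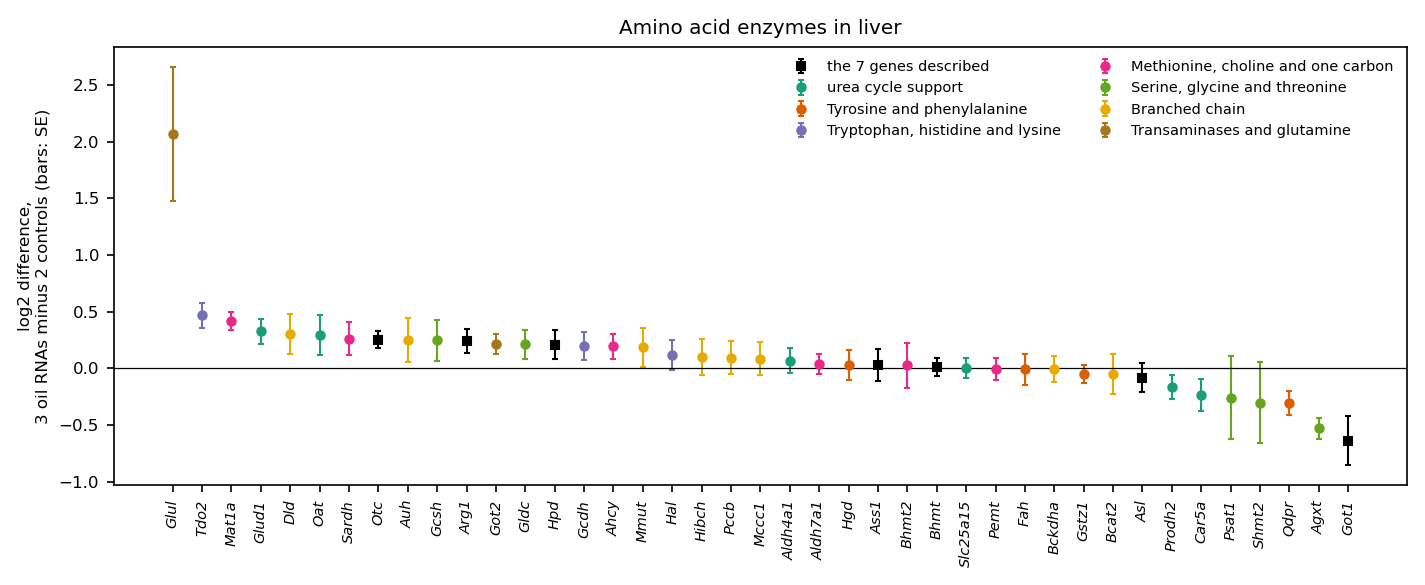
Log2 difference of the 3 oil RNAs from the 2 controls in liver (vertical axis, bars for SE) for the 7 genes described (black squares) and the 34 tested genes of the pathway lists (coloured circles), ordered from high to low. Got1 at -0.64 and Agxt at -0.53 are the lowest, Tdo2 at 0.47 and Mat1a at 0.42 follow the dim Glul at the top, and 0 of them passed.

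Cell type markers were read beside these values. The 10 measured markers of macrophages and Kupffer cells summed to 1244, 1363 and 1421 with fungal, fish and both oils, against 1956 and 1821 in the controls. Of these markers 8 were tested, 0 passed, and their median log2 difference over the oil RNAs was -0.45. The 8 measured markers of pericentral hepatocytes summed to 25614, 26424 and 24017 with the oils, against 21723 and 21120. Of these markers 6 were tested, 0 passed, and their median log2 difference over the oil RNAs was 0.54. Aldh1a1 read 3917, 4274 and 4091 against 2225 and 2548. By contrast, Cyp1a2 with fish oil, at 7107 against 8658 and 7775, and Cyp2e1 with both oils, at 8671 against 9172 and 9171, were lower. The 3 tested markers of periportal hepatocytes, the zone where the urea cycle is most active, had a median log2 difference of 0.12 over the oil RNAs. The part of these shifts in the values of the 7 genes was not tested. Of 8 measured genes responsive to fasting and hormones 7 were tested, 4 were above and 3 below the control mean over the oil RNAs, and 0 passed. G6pc, the glucose-6-phosphatase of fasting liver, read 1224, 1669 and 553 with fungal, fish and both oils, against 969 and 1160 in the controls.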

How the data were processed

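RNA of 5 liver and 4 hippocampus samples was measured on 17 arrays of 2 types, chip A and chip B. The authors deposited intensities, which are whole numbers and in part negative. How they were computed and scaled is not stated in the labels or file headers. Each array's mean, with 2% trimmed at each end, is near 150. Gene symbols came from the platform annotation. The 55 control probe sets of each chip did not enter any test.

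Values under a floor of 15 were set to it and log2 was taken. Only probe sets no dimmer on average than their chip's median were tested, with limma 3.58.1 in R 4.3.3 (lmFit, eBayes with an intensity trend, each chip by itself), and Benjamini-Hochberg adjustment ran over the 2 chips jointly. The diet fit had 4 groups, a second fit set the 3 oil RNAs against the 2 controls, and another fitted tissue and diet after every array had been rescaled to a trimmed mean of 150. A difference between tissues in the diet effect was tested after seeing the data. The diet fit had 2.17 (chip A) and 2.05 (chip B) prior degrees of freedom. Each fit was tested on simulated data in which 200 probe sets per chip were shifted. Signal over background and the number of arrays limit the precision. Promoters are from RefSeq on GRCm38.p6, and the array tables name no build.

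The genes and lists were chosen with earlier results of these data known. The rule for named genes was all members with every probe set of 1 symbol, the brightest standing for a gene, and up to 3 bright genes with the largest difference per list and comparison. Alternatives were no filter, 0.5 or 2.5 times the floor, quantile normalization, a bright subset above the 75th percentile, no intensity trend, averaged probe sets of a gene, an additive fit of the oils, tissue without diet, and leaving out each replicate.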

Additional observations from a re-analysis of the deposited data

Results flagged for a closer look

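Got1 had an opposite sign in the 2 tissues for both single oils. With fungal oil the single liver value lay below both liver controls, while the single hippocampus value lay above the only hippocampus control. The liver effect minus the hippocampus effect was -0.70 on the log2 scale. With fish oil it was -0.83. A limma fit of cell means, added after seeing the data, gave standard errors of 0.22 for both and adjusted p-values of 0.480 and 0.399, so that neither difference passed, and 0 of 6535 probe sets did for either oil, with 735 and 821 at an unadjusted p under 0.05. Each hippocampus group is 1 array, so the error comes from the 2 liver controls, drawn towards the spread of probe sets of like intensity.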

How the results depend on the processing

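Of 634 recomputed values of single genes 613 kept their sign, and none crossed the threshold where a test was possible. Leaving out a liver control leaves the diet fit with no test, which holds for 70 of these values. The number of the 7 genes called was 0 in every liver contrast and 6 between tissues under every alternative that had a test. Those 6 entered the main tissue test through their liver values, where 19.4% of all probe sets were called higher in liver. The count between tissues is therefore a description and no check. Over all probe sets, no filter gave 328, 395 and 341 calls for fungal, fish and both oils, 609 for fungal minus fish oil and 821 for the interaction, where the filter gave 0 each. Per liver array, 30.7% to 32.4% of the values on chip A and 41.0% to 42.4% on chip B were below the floor. Without the filter such probe sets enter, and controls that are both set to the floor have no spread. The share of these calls that came from such probe sets was not tested, and the counts are not read here as diet responses. The bright subset gave 26, 39, 37, 7 and 1, and the additive fit gave 5, 0 and 16. For the 3 oil RNAs together the count was between 0 and 11, against 4. Of the values with a test 17 changed sign. Under quantile normalization these were, for Ass1, -0.0093 with fungal oil and -0.053 over the oil RNAs; for Bhmt, -0.11 with fish oil, 0 for fungal minus fish oil and -0.026 over the oil RNAs; -0.012 for Hpd with both oils and 0.017 for Otc in fungal minus fish oil. The additive fit gave fungal oil values of -0.027 for Asl, -0.10 for Hpd, -0.025 for Arg1 and -0.089 for Ass1. Leaving out 1 liver RNA at a time gave, over the oil RNAs, values between -0.17 and 0.011 for Asl, between -0.18 and 0.24 for Ass1 and between -0.0059 and 0.048 for Bhmt. With a control left out of the diet fit 4 more changed sign: Ass1 ranged from -0.20 to 0.21 with fungal oil, from -0.058 to 0.36 with fish oil and from -0.27 to 0.14 with both oils, and Asl ranged from -0.16 to 0.0080 with fish oil. The cause of these reversals was not tested. No paired analysis was possible because each oil group has 1 RNA and replicate numbers exist for the liver controls alone. Negative and floored values limit what can be read of dim genes, and 1 RNA per oil diet limits every contrast.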
